A study of Chlorocebus sabaeus with 12 samples.

Results

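The genes described here make, take up, move and store cholesterol, and 28 were chosen by name: enzymes of cholesterol synthesis, the SREBP regulators that control them, and proteins of sterol transport and esterification. Each was represented by its brightest probe, and these 28 are among 20355 genes tested. The study concerns phosphorylation of FXR, the bile acid receptor of the nucleus, which the gene NR1H4 encodes. The cells were COS-1, an SV40-transformed kidney line of the African green monkey, and all of them had been transiently transfected with human FXR for 24 h. S154D puts an aspartate, charged as phosphoserine is, in place of a serine of FXR, and S154A puts an alanine there, which takes no phosphate. After transfection the cells received either chenodeoxycholic acid (CDCA, a primary bile acid that activates FXR, at 50 mM as the labels give it) or its vehicle, 0.1% DMSO, for a further 24 h. The 4 groups were S154D with CDCA, S154D with DMSO, S154A with CDCA and S154A with DMSO, with 3 one-colour arrays each. Neither wild-type FXR nor an untransfected control was among the groups, so a response to CDCA that does not pass through the mutants cannot be told apart from one that does. The labels do not say that replicates were separate cultures, so the p-values measure only the spread between these arrays.

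Cholesterol is built from acetyl-CoA through mevalonate, isoprenoids, squalene and lanosterol. The genes of the route are switched on together by SREBP2, which SCAP escorts from the endoplasmic reticulum to the Golgi for cleavage when sterol is low, and which INSIG proteins hold back when sterol is high. In liver, bile acids are made from cholesterol, and FXR limits that synthesis, which is the known link between the receptor and sterol balance.

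The arrays carried human 60-base probes, and the RNA was from monkey. Of the 28 genes, 28 have a current symbol in the green monkey RefSeq table, which holds a name for 10268 of the 20355 genes tested. The probe sequences matter to the results in 2 ways: each gene's signal rests on 60 bases, and the change with CDCA in S154D cells moved with how many of those bases were G or C. The 4 probes below are of genes from different steps. They hold 22 to 33 G or C, where the 28 probes run from 21 (such as IDI1) to 36 (TM7SF2). The changes of these 4 genes alone do not follow the order of their GC. In each line G and C are in capitals, read 5′ to 3′, and the coordinates are those of the human build hg17 in the scanner files. Exon and UTR annotation was not used here, but the mapped spans of MVD, HSD17B7 and INSIG2 are longer than the probe, 754, 791 and 1151 bases, so these probes map in more than 1 block. So does that of NPC1, with a span of 1130 bases. The mapped span of the CYP51A1 probe is shorter than the probe, 33 bases.
MVD, chr16:87246486-87247239, minus strand, 33 of 60 bases G or C: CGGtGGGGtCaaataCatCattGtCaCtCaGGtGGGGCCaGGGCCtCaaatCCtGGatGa
SOAT1, chr1:176052129-176052188, plus strand, 25 of 60 bases G or C: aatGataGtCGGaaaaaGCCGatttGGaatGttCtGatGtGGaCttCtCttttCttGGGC
INSIG2, chr2:118580941-118582091, plus strand, 24 of 60 bases G or C: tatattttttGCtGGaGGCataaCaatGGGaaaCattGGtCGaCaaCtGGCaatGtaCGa
HSD17B7, chr1:159504977-159505767, plus strand, 22 of 60 bases G or C: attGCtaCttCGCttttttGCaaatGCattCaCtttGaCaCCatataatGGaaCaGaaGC

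Each of the 28 genes gave a signal well above background on 12 of 12 arrays on its brightest probe. Levels are given as log2 signal relative to the 75th percentile of the array, so that 0 is that percentile, and levels of different probes are not compared. The SD within a group had a median of 0.14 over the 28 genes and 0.18 over all genes. The 75th percentile was 1234 to 2107 signal units, and the share of spots well above background ran from 61.6% to 79.8%. The probe for NR1H4 averaged 7.56 ± 0.13 in S154D with CDCA, 7.77 ± 0.27 in S154D with DMSO, 7.59 ± 0.13 in S154A with CDCA and 7.74 ± 0.16 in S154A with DMSO (SD, n = 3 each). Mesenchymal markers (5 of 5 on the array) and epithelial markers (5 of 5) were well above background on every array. So were 4 of 5 leukocyte markers and 2 of 5 hepatocyte markers, and PTPRC, the common antigen of leukocytes, was so on 0 arrays. A signal well above background therefore does not by itself show which transcript a probe measured. The arrays lay on 4 slides, and only slide 3 held all 4 groups. S154D_CDCA 1 and S154D_CDCA 3 lay on slide 2, which held no array of S154D with DMSO or of S154A with CDCA. For S154D with CDCA, group and slide are therefore partly confounded.

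CDCA against DMSO in S154D cells gave the widest differences among the 28 genes. SQLE, SC5DL, CYP51A1, LBR and SOAT1 had higher signal with CDCA, at 1.25-fold to 1.82-fold, and MVD, PMVK and SREBF2 had lower signal, at an unadjusted p under 0.05 in limma. After Benjamini-Hochberg adjustment over all genes 0 of 28 passed a threshold of 0.05, whereas 10.2% of all genes tested did. The 8 genes at an unadjusted p under 0.05 (5 higher, 3 lower) compare with 30% of all genes (17.8% higher, 12.2% lower). Signal on the CDCA arrays lay wholly above that on the DMSO arrays for 6 of 28 genes and wholly below it for 4, against 20% and 13.6% of all genes. Under other settings of the processing 0 to 5 of the 28 passed, and with 1 array left out 0 to 2 did, SC5DL most often. The count of all genes moved with the settings too, and is set beside these counts in the closing section. Values were above 0 for 13 of 28 genes and for 49.1% of all genes. The median change of the 28 was -0.01, as was that of all genes, and the median size of change was 0.20 for the 28 and 0.27 for all genes. In bulk RNA, fewer cells of a kind and less RNA per cell cannot be told apart.

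**Figure D1:**
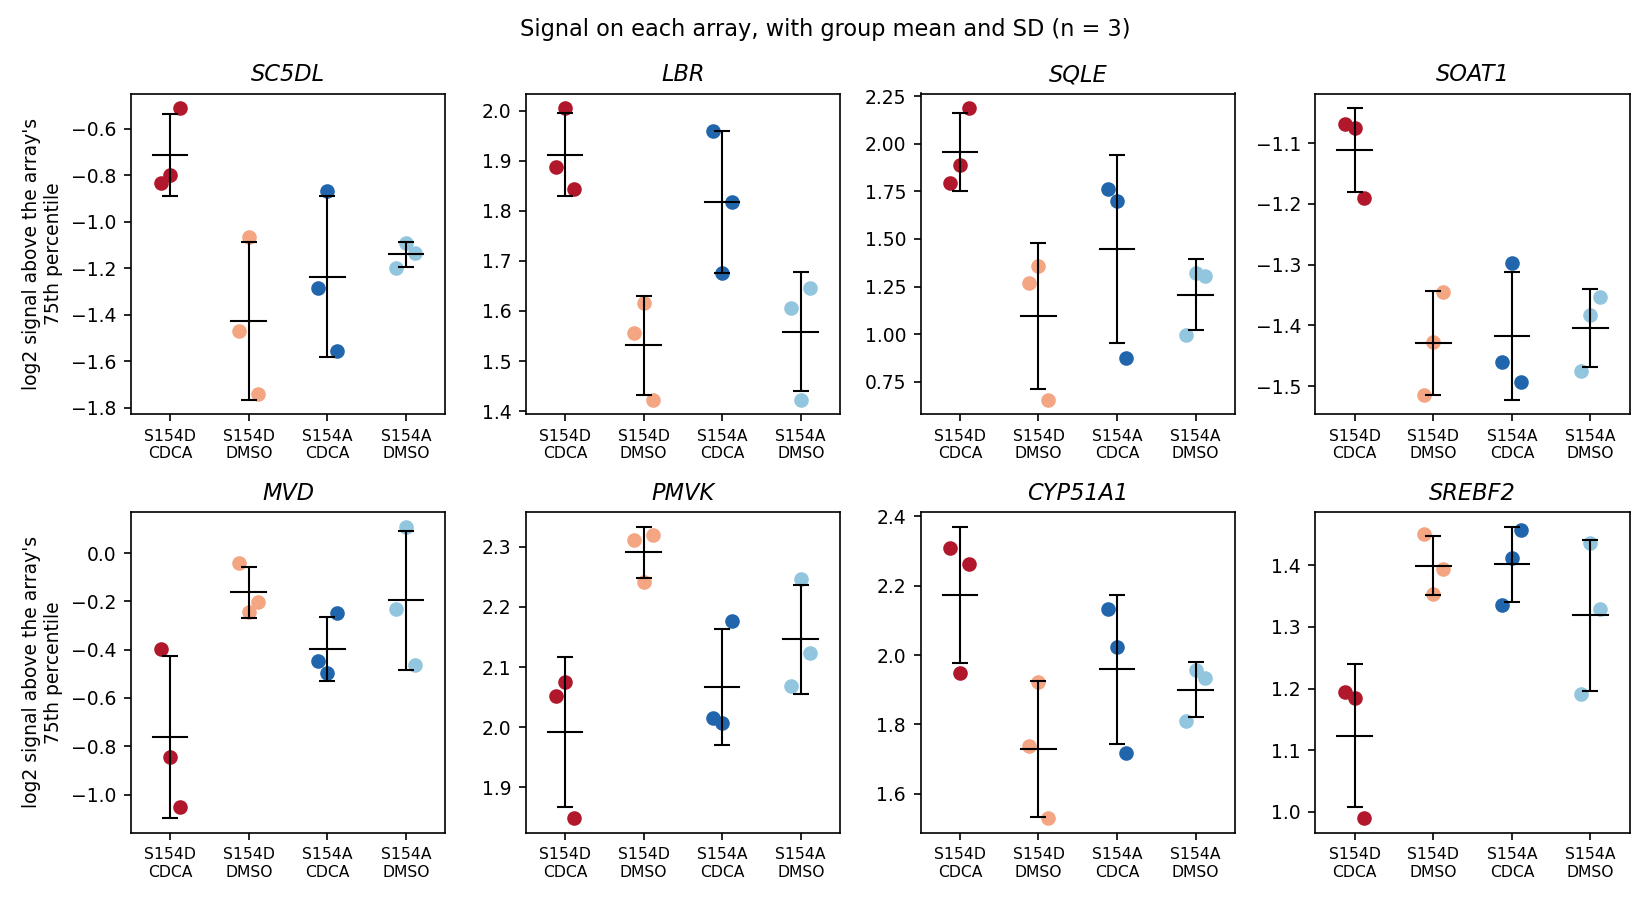
Log2 signal relative to the array's 75th percentile for the 8 genes with an unadjusted p under 0.05 between CDCA and DMSO in S154D cells; points are arrays, horizontal lines group means and bars SD (n = 3). Each vertical axis has its own range and does not start at 0; the S154D arrays with CDCA and those with DMSO do not overlap in any of the 8 panels.

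Among the 7 enzymes of the mevalonate and isoprenoid steps, 4 had values above 0 and 3 below in S154D cells, and the median change was 0.09. MVD, which decarboxylates mevalonate diphosphate to isopentenyl diphosphate, stood at -0.40, -0.84 and -1.05 with CDCA and at -0.04, -0.24 and -0.20 with DMSO. All 3 CDCA arrays were lower than all 3 DMSO arrays. The log2 change was -0.60 ± 0.19 (SE of the fit, 95% interval -1.01 to -0.19, limma adjusted p = 0.0641). PMVK, the kinase of the step before, read 2.05, 2.08 and 1.85 with CDCA against 2.31, 2.24 and 2.32 with DMSO. These arrays did not overlap either, and the change was -0.30 ± 0.10 (limma adjusted p = 0.0791). IDI1, the isopentenyl diphosphate isomerase, lay the other way, at -1.02, -1.30 and -1.25 with CDCA and -1.89, -1.32 and -1.43 with DMSO. Its lowest CDCA and highest DMSO arrays were only just apart, and the change of 0.36 ± 0.20 had an interval of -0.08 to 0.79. The rest, HMGCS1 and ACAT2 (early steps that condense acetyl units), MVK (mevalonate kinase) and FDPS (farnesyl diphosphate synthase), had changes between -0.26 and 0.12.

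SQLE, squalene epoxidase, a rate-limiting enzyme of the sterol-specific part of the route, had the largest estimate of the 28. Its levels were 1.79, 1.89 and 2.19 with CDCA and 1.27, 1.36 and 0.65 with DMSO. Every CDCA array was higher than every DMSO array, though 1 DMSO array lay well under the other two. The change was 0.86 ± 0.26, or 1.82-fold, with an interval of 0.29 to 1.43 (limma adjusted p = 0.0574). FDFT1, which makes squalene, had -0.17, and LSS, which closes the ring to lanosterol, had -0.12 on its brightest probe, and both intervals held 0.

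The 9 enzymes from lanosterol to cholesterol were spread on either side of 0, with 3 above it and a median of -0.04. SC5DL, the lathosterol desaturase near the end of the route, stood at -0.83, -0.80 and -0.51 with CDCA against -1.47, -1.07 and -1.74 with DMSO. The groups did not overlap, and the change was 0.71 ± 0.20 (interval 0.27 to 1.16), at the smallest adjusted p of the 28, 0.0501 in limma. CYP51A1, the lanosterol demethylase, read 2.31, 1.95 and 2.26 with CDCA and 1.74, 1.92 and 1.53 with DMSO. The nearest arrays were almost level, and the change was 0.44 ± 0.15 (limma adjusted p = 0.080). LBR, a nuclear envelope protein with sterol reductase activity, read 1.89, 2.01 and 1.84 with CDCA and 1.56, 1.62 and 1.42 with DMSO. Its groups were clearly apart relative to their spread, with a change of 0.38 ± 0.11 (limma adjusted p = 0.0536). TM7SF2, the other sterol reductase for the same step, had -0.04 ± 0.19 on its brightest probe. HSD17B7, which acts in removal of the C4 methyl groups, was lower on all 3 CDCA arrays (-0.13, -0.29 and -0.17, against 0.08, -0.06 and 0.19 with DMSO), with a change of -0.27 ± 0.14. NSDHL and SC4MOL of the same demethylation, EBP (sterol isomerase) and DHCR7 (a terminal reductase) had values from -0.20 to -0.01.

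Of the 5 SREBP regulators, 2 had values above 0 and the median was -0.17. SREBF2, the gene of SREBP2, stood at 1.20, 1.19 and 0.99 with CDCA and 1.45, 1.35 and 1.39 with DMSO. These groups did not overlap, and the change was -0.28 ± 0.10 (limma adjusted p = 0.0965). SREBF1 and SCAP had -0.19 and -0.17, INSIG1 0.23 and INSIG2 0.03, all with intervals that held 0. INSIG1 is itself a well-known SREBP target, as are SQLE and other enzymes of the route, whose values lay on both sides of 0. Among the 4 genes of transport and esterification, SOAT1, which esterifies cholesterol for storage, stood at -1.07, -1.08 and -1.19 with CDCA against -1.51, -1.43 and -1.35 with DMSO. Its groups were apart, by 0.32 ± 0.09 (limma adjusted p = 0.0581). STARD4, a cytosolic sterol carrier, had 0.20, and NPC1 and NPC2, which pass cholesterol out of lysosomes, had 0.06 and -0.02.

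**Figure D2:**
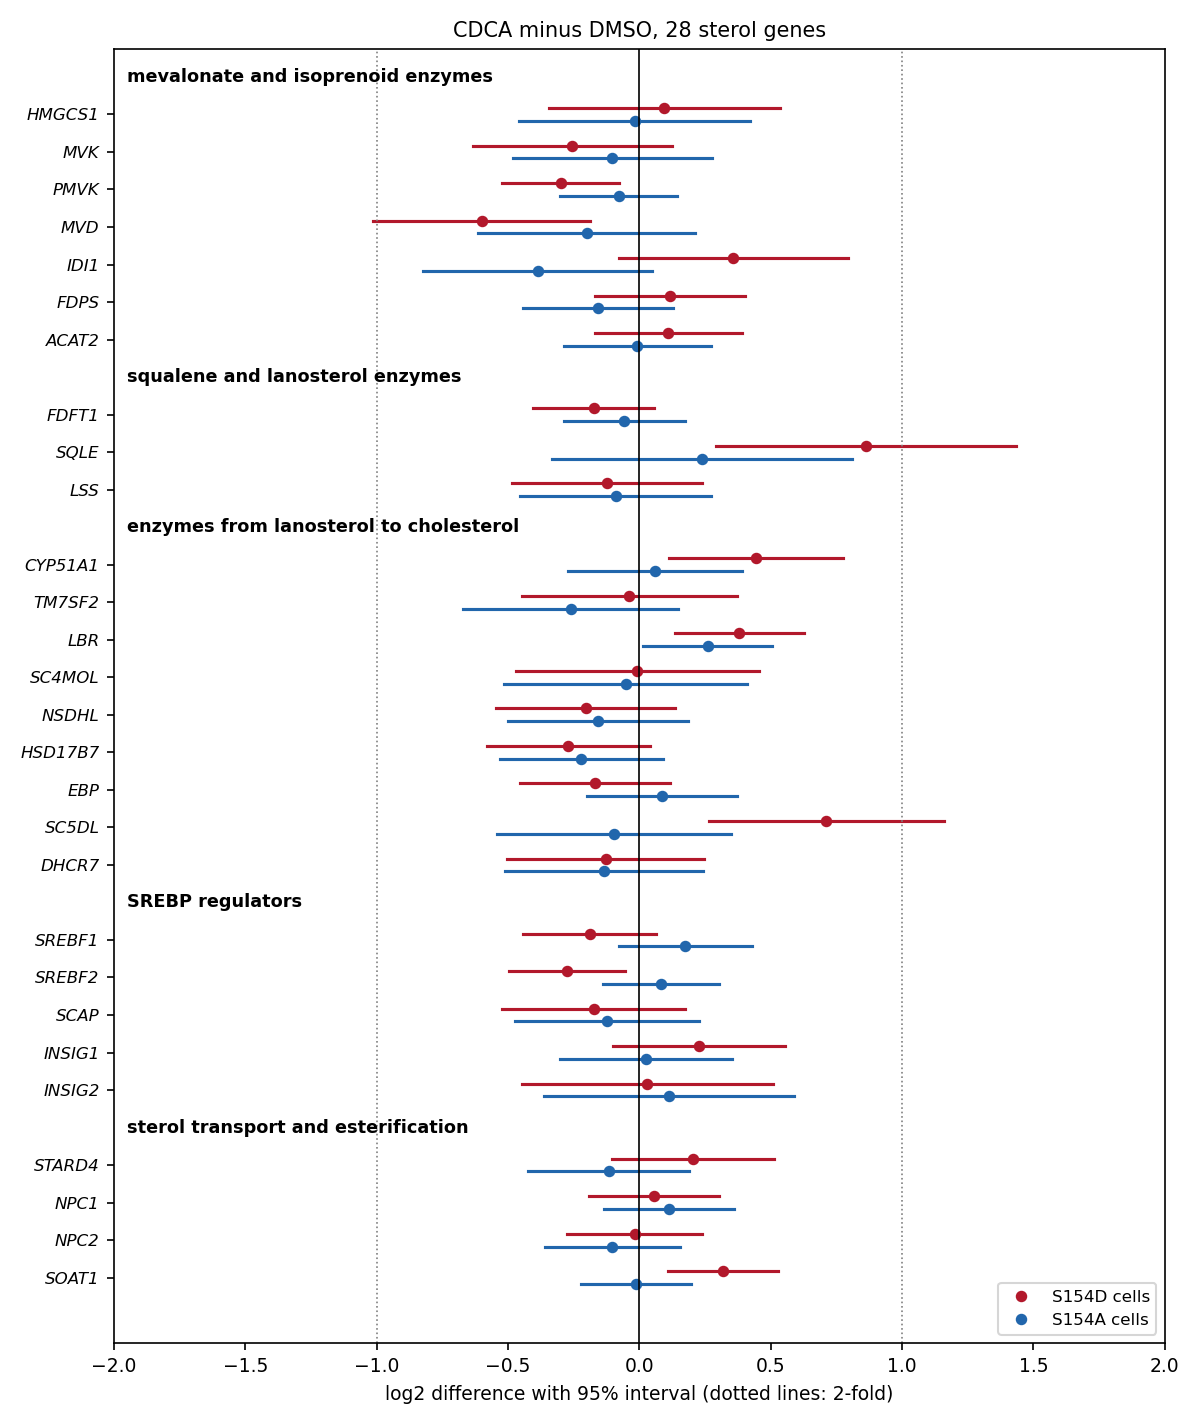
Log2 difference between CDCA and DMSO for the 28 genes by role, in S154D cells (red, upper) and S154A cells (blue, lower), with 95% intervals from the limma fit (3 arrays per group). In S154D cells 25 of 28 intervals lie within the dotted 2-fold lines, and in S154A cells 28 of 28 do.

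For 12 of the 28 genes more than 1 probe was kept, and the probes of 11 of these 12 shared a sign in S154D cells. Sizes differed between probes. When every kept probe was tested on its own, an alternative chosen after seeing the data, 6 of the 42 probes passed in limma with adjustment over probes, belonging to 5 of the 28 genes, against 11.6% of all probes and 14.4% of all genes. SC5DL passed on both probes, with 0.71 ± 0.20 (adjusted p = 0.0476) and 0.53 ± 0.11 (adjusted p = 0.0269). SOAT1 passed on its dimmer probe, at 0.84 ± 0.19 against 0.32 on the brighter one. ACAT2, the cytosolic acetyl-CoA acetyltransferase, had 1.16 ± 0.26 on its dimmer probe and 0.11 ± 0.13 on the brighter. TM7SF2 had -0.72 ± 0.14 on the dimmer and -0.04 ± 0.19 on the brighter, and SREBF1 had -0.56 ± 0.14 and -0.19 ± 0.11. CYP51A1 showed 0.02 ± 0.12 on its other probe. INSIG2 had 0.03 ± 0.22 on the brighter and 0.41 ± 0.19 on the dimmer, HMGCS1 0.09 ± 0.20 and 0.23 ± 0.10. HSD17B7 had -0.27 ± 0.14 on the brighter and -0.13 ± 0.12 on the dimmer. LSS was the 1 gene whose probes differed in sign, with -0.12 on the brightest and 0.06, -0.24 and 0.45 on the other 3. SC5DL is therefore the only gene of the 28 with 2 passing probes. The values of ACAT2, TM7SF2, SREBF1, SOAT1, CYP51A1 and LSS depend on the probe read, as do the sizes for INSIG2, HMGCS1 and HSD17B7. Probes shared a sign for 9 of these 12 genes in S154A cells and for 10 in the mean of both mutants. Between mutants they did for 7 in DMSO and 7 in CDCA, and for the difference of responses for 8. Values in the comparisons below are from the brightest probe unless another is named.

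The change with CDCA in S154D cells followed the GC content of the probe across the whole array. Spearman's rho between change and GC was -0.56 over 20355 genes and -0.54 over the 28, all measured on the same 12 arrays. In S154A cells it was -0.11 and -0.23. The 28 probes had a median GC of 40%, from 35% to 60%, against 45% for all genes, and the probes of MVD, PMVK and SREBF2 held 53.3% to 55% while those of the 5 higher genes held 35% to 41.7%. After each array was corrected for its trend with GC, SC5DL kept 0.59 ± 0.21 and SOAT1 0.26 ± 0.11. SQLE had 0.55 ± 0.26, CYP51A1 0.19 ± 0.17 and LBR 0.13 ± 0.11. On the other side MVD had -0.31 ± 0.15, PMVK -0.03 ± 0.10 and SREBF2 0.02 ± 0.10, so SREBF2 and PMVK lay close to the trend of the array. HSD17B7, with only 22 G or C in its probe printed above, went against the trend, and its value was -0.52 ± 0.14 after correction. SREBF1 had -0.44 ± 0.15, NSDHL -0.39 ± 0.16 and FDFT1 -0.29 ± 0.12 in that fit. With the correction 0 of 28 genes, and 0 of all genes, passed adjustment in limma, and 6 of 28 had an unadjusted p under 0.05, against 18.4% of all genes. The summed level of the epithelial markers was 7.13 to 7.39 with CDCA and 7.51 to 7.57 with DMSO in S154D cells, but the markers lay on both sides of 0. Of the 5 markers 3 had values above 0, with a median of 0.14, and 1 passed, higher with CDCA; 2 were wholly higher and 2 wholly lower, the lower ones being the keratins KRT8 and KRT18. The part of GC or of these markers in the sterol gene values was not tested beyond that fit.

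**Figure D3:**
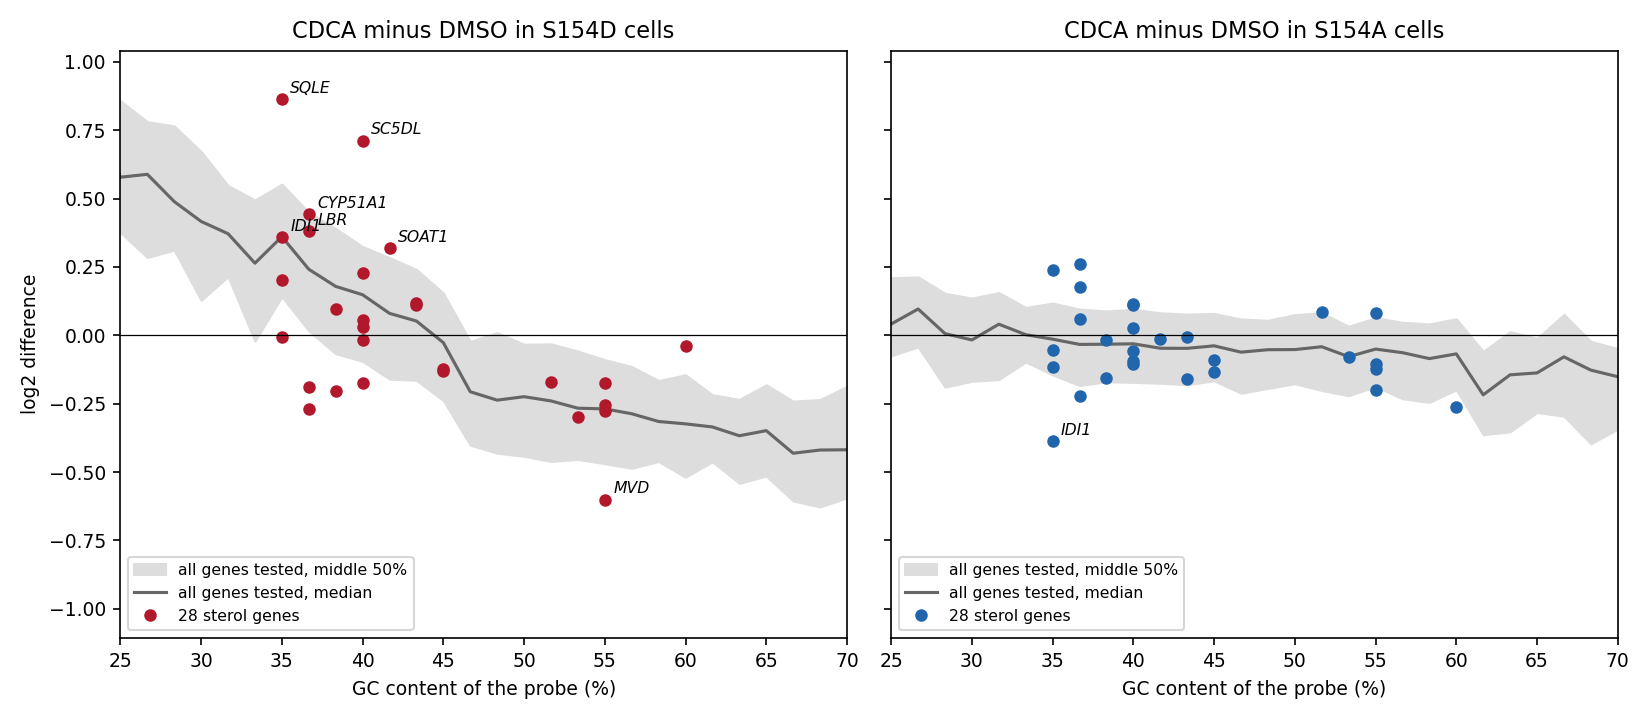
Log2 difference between CDCA and DMSO against the percentage of G and C in the probe, in S154D cells (left) and S154A cells (right); points are the 28 sterol genes, the line is the median of all genes at that GC and the band their middle 50%. In S154D cells the points run with the line, at a Spearman rho of -0.54, with SQLE, SC5DL, SOAT1 and TM7SF2 above the band and MVD, HSD17B7, SREBF1, FDFT1, NSDHL and SC4MOL below it.

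The 4 slides offered a further view. With slide as a block in the fit, 0 of 28 genes passed in S154D cells and 7 had an unadjusted p under 0.05, against 22.1% of all genes, with SC5DL at 0.82 ± 0.18 (limma adjusted p = 0.138) and HSD17B7 at -0.43 ± 0.14. Within slide 3, which held 1 array of each group, the differences between CDCA and DMSO in S154D cells were 1.24 for SQLE, 0.94 for SC5DL, 0.58 for LBR, 0.42 for CYP51A1, 0.27 for SOAT1, -0.64 for MVD, -0.49 for HSD17B7, -0.24 for PMVK and -0.21 for SREBF2. This is 1 pair of arrays, which the full fit also holds, and it has no test. Its DMSO array, S154D_DMSO 3, was the lowest of its group for SQLE (0.65), SC5DL (-1.74), LBR and CYP51A1. It was the highest for SOAT1, HSD17B7 and PMVK. In the full fit with 1 array left out at a time, SQLE ran from 0.64 to 0.99 and SC5DL from 0.55 to 0.89. LBR ran from 0.33 to 0.42, SOAT1 from 0.27 to 0.36 and MVD from -0.78 to -0.46.

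Genes around the route, from lists that do not hold the 28, included some that passed in S154D cells: 9 of 54 tested, 6 higher and 3 lower, where 10.2% of all genes passed, 6.45% higher and 3.74% lower. Of 16 genes of SREBP processing and sterol sensing, 3 rose and 2 fell, with a list median of 0.16. MBTPS1, the site-1 protease that makes the first cut in SREBP, rose, reading 2.97, 2.87 and 2.84 with CDCA and 2.40, 2.44 and 2.42 with DMSO. These arrays were far apart relative to their spread (0.47 ± 0.09, limma adjusted p = 0.0284). SEC24C, part of the COPII coat that carries SCAP and SREBP out of the endoplasmic reticulum, fell (-1.11 ± 0.23, limma adjusted p = 0.030), as did AUP1 (-0.56 ± 0.12), a factor of protein degradation at that membrane. UFD1L, of the complex that extracts ubiquitinated proteins there, rose by 0.49 ± 0.12, and RNF139, a ubiquitin ligase of the endoplasmic reticulum named after its values were seen, by 0.54 ± 0.13. Of 12 genes of the isoprenoid branch and other sterol enzymes 2 rose and 0 fell: PGGT1B, a subunit of a geranylgeranyl transferase, by 0.64 ± 0.15, and PDSS2, of coenzyme Q side chain synthesis, by 0.40 ± 0.10.

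Of 7 LXR targets and sterol efflux genes 0 passed and the median was -0.25, against -0.01 for all genes. The sterol exporters ABCG1 and ABCA1 had -0.25 ± 0.16 and 0.13 ± 0.15. With replicate number as a block, MYLIP had -0.91 ± 0.38, NR1H2 -0.45 ± 0.18, APOE -0.43 ± 0.14, NR1H3 -0.19 ± 0.10 and ABCG4 0.07 ± 0.13. With the GC correction, in the same order, they had -1.03 ± 0.38, -0.07 ± 0.10, -0.03 ± 0.11, 0.08 ± 0.09 and -0.31 ± 0.13. ABCG1 and ABCA1 had -0.05 ± 0.15 and -0.19 ± 0.17 with that correction. Of 19 genes of lipoprotein uptake and lysosomal or intracellular sterol traffic, 1 rose and 1 fell. LAMP2, a lysosomal membrane protein, rose by 0.48 ± 0.14, and STARD3, a sterol carrier of late endosomes, fell by 0.74 on the log2 scale (-0.74 ± 0.14). In S154A cells 0 of these 54 genes passed, where 0.133% of all genes did. All 9 calls were lost, with all other calls of this comparison, when GC was corrected, or when slide or replicate number was a block. The same happened without S154D_DMSO 3, without slide 3, with no filter on probes, and with only the S154D groups in the fit. The count of all genes was 1 without S154D_DMSO 1, without S154D_CDCA 3 or with the unscaled series table, and 3 without slide 1. With the GC correction the 3 lower genes had -0.95 ± 0.23 (SEC24C), -0.42 ± 0.18 (STARD3) and -0.29 ± 0.10 (AUP1). The 6 higher ones had 0.35 ± 0.16 (RNF139), 0.32 ± 0.14 (PGGT1B), 0.17 ± 0.14 (UFD1L), 0.17 ± 0.14 (LAMP2), 0.15 ± 0.10 (MBTPS1) and 0.08 ± 0.10 (PDSS2).

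In S154A cells the estimates of CDCA against DMSO were smaller, between -0.39 and 0.26 over the 28 genes. Here 0 of 28 passed in limma, against 0.133% of all genes, and 1, LBR, had an unadjusted p under 0.05, against 6.04% of all genes. The median change was -0.07 for the 28 and -0.04 for all genes. All 28 of the 95% intervals lay within a 2-fold change either way, and 23 within 1.5-fold. LBR read 1.96, 1.68 and 1.82 with CDCA and 1.61, 1.42 and 1.65 with DMSO. The groups did not overlap, and the change was 0.26 ± 0.11 (limma adjusted p = 0.827). SREBF1 was the other gene without overlap, at 5.89, 6.09 and 5.96 with CDCA and 5.79, 5.87 and 5.76 with DMSO, a change of 0.18 ± 0.11. Both were higher with CDCA, where 3.69% of all genes were so without overlap, and 0 of 28 were lower without overlap, against 8.15%. All 7 mevalonate and isoprenoid enzymes had values below 0, as did 59.9% of all genes, and IDI1 had the lowest, -0.39 ± 0.20. HSD17B7 had -0.22 ± 0.14 and TM7SF2 -0.26 ± 0.19. With 1 array left out at a time IDI1 ran from -0.53 to -0.21 (without S154A_DMSO 1), HSD17B7 from -0.35 (without S154A_CDCA 3) to -0.07 (without S154A_CDCA 2), and TM7SF2 from -0.36 to -0.10 (without S154A_DMSO 2). Genes with the larger estimates in S154D cells had intervals around 0 here, such as SQLE (0.24, -0.33 to 0.81), SC5DL (-0.10, -0.54 to 0.35), SOAT1 (-0.01, -0.22 to 0.20) and MVD (-0.20, -0.61 to 0.21).

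The difference between the 2 responses, S154D minus S154A, was tested directly. In limma 0 of 28 genes passed, against 0.147% of all genes, and 5 had an unadjusted p under 0.05, against 22.4%. SC5DL had a difference of 0.81 ± 0.28 (interval 0.18 to 1.44, adjusted p = 0.146), IDI1 0.74 ± 0.28 (adjusted p = 0.161), SREBF2 -0.36 ± 0.14, SOAT1 0.33 ± 0.13 and SREBF1 -0.37. The estimates for IDI1 lay on opposite sides of 0, 0.36 in S154D and -0.39 in S154A cells. SQLE had 0.62 ± 0.36, with an interval from -0.18 to 1.43, which holds no difference and also a difference of over 2-fold. ACAT2 had 0.12 ± 0.18 on its brighter probe and 1.67 ± 0.37 on the dimmer (limma adjusted p over probes = 0.0711). Averaged over both mutants, 0 of 28 passed, against 0.0393% of all genes, and 7 of 28 had an unadjusted p under 0.05, against 17.5%. LBR had the smallest p, with 0.32 ± 0.08 (limma adjusted p = 0.169), and was the only one of the 28 whose CDCA arrays lay above its DMSO arrays with both mutants, where 0.614% of all genes did. SQLE averaged 0.55 ± 0.18, MVD -0.40 ± 0.13, PMVK -0.19 ± 0.07 and HSD17B7 -0.25 ± 0.10. Over all genes Spearman's rho with probe GC was -0.40 for the difference and -0.56 for the mean (-0.45 and -0.52 over the 28). With the GC correction 0 of 28 passed (smallest limma adjusted p 0.265 and 0.511), where 7 and 6 of all genes did. Across the alternatives the mean ran from -0.23 to -0.04 for PMVK and from 0.18 to 0.39 for LBR. The difference ran from -0.43 to -0.08 for SREBF2 and from -0.60 to -0.08 for SREBF1.

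Between the mutants in CDCA, S154D against S154A, 0 of 28 genes passed in limma, against 0.403% of all genes, and 3 had an unadjusted p under 0.05, against 23.6%. The median difference was 0.03 for the 28 and 0.06 for all genes. TM7SF2 had 0.30 ± 0.19 on its brighter probe and -0.46 ± 0.14 on the dimmer. SOAT1 stood at -1.07, -1.08 and -1.19 in S154D and -1.46, -1.30 and -1.49 in S154A. These did not overlap, and the difference was 0.31 ± 0.09 (limma adjusted p = 0.114). SREBF2 read 1.20, 1.19 and 0.99 in S154D and 1.34, 1.41 and 1.46 in S154A, lower on every S154D array, with -0.28 ± 0.10 (limma adjusted p = 0.142). SC5DL had 0.52 ± 0.20 and SQLE 0.51 ± 0.26, both with no overlap, and MVD -0.37 ± 0.19 with overlap. Single arrays moved the last 2: SQLE had 0.23 without S154A_CDCA 3, and MVD ran from -0.55 without S154D_CDCA 1 to -0.22 without S154D_CDCA 3. In all, 3 of 28 were wholly higher and 1 wholly lower, against 20.9% and 7.62% of all genes. These values share their S154D arrays with the CDCA comparison given first. Spearman's rho with probe GC was -0.39 over all genes and -0.19 over the 28. With the GC correction 0 of 28 passed (smallest limma adjusted p 0.185), where 47 of all genes did. Across the alternatives SREBF2 ran from -0.34 to -0.10 and SOAT1 from 0.23 to 0.43. Of the 54 genes of the surrounding lists 0 passed.

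In DMSO, without added bile acid, 0 of 28 genes passed in limma between S154D and S154A, and 0% of all genes did. At an unadjusted p under 0.05 there were 2 of 28, against 4.34% of all genes. IDI1 read -1.89, -1.32 and -1.43 in S154D and -0.69, -1.13 and -1.35 in S154A. The groups overlapped, and the difference was -0.49 ± 0.20 (limma adjusted p = 0.996). SREBF1 read 6.06, 6.27 and 5.87 in S154D and 5.79, 5.87 and 5.76 in S154A, with overlap at the edge and 0.26 ± 0.11. EBP was the 1 gene wholly higher, and 0 were wholly lower, against 4.78% and 6.17% of all genes. It lay at 4.19, 4.08 and 4.11 in S154D against 4.00, 3.94 and 3.73 in S154A, with a difference of 0.23 ± 0.13. PMVK had 0.14 and SC5DL -0.28. With 1 array left out at a time IDI1 ran from -0.64 to -0.31, SREBF1 from 0.16 to 0.36, EBP from 0.15 to 0.29 and SC5DL from -0.46 to -0.13, and SC5DL was at -0.46 without S154D_DMSO 2. The smallest size came without S154A_DMSO 1 for IDI1, and nearly so without S154D_DMSO 1, without S154D_DMSO 2 for SREBF1, without S154A_DMSO 3 for EBP and without S154D_DMSO 3 for SC5DL. All 28 intervals lay within 2-fold. Spearman's rho between difference and probe GC was 0.63 over the 28 and 0.31 over all genes on these arrays. With the GC correction 0 of 28 passed (smallest limma adjusted p 0.999) and 1 had an unadjusted p under 0.05, against 2.85% of all genes. The median of the 28 was then -0.02, and SREBF1 had 0.34 ± 0.15, IDI1 -0.39 ± 0.21 and EBP 0.16 ± 0.16.

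**Figure D4:**
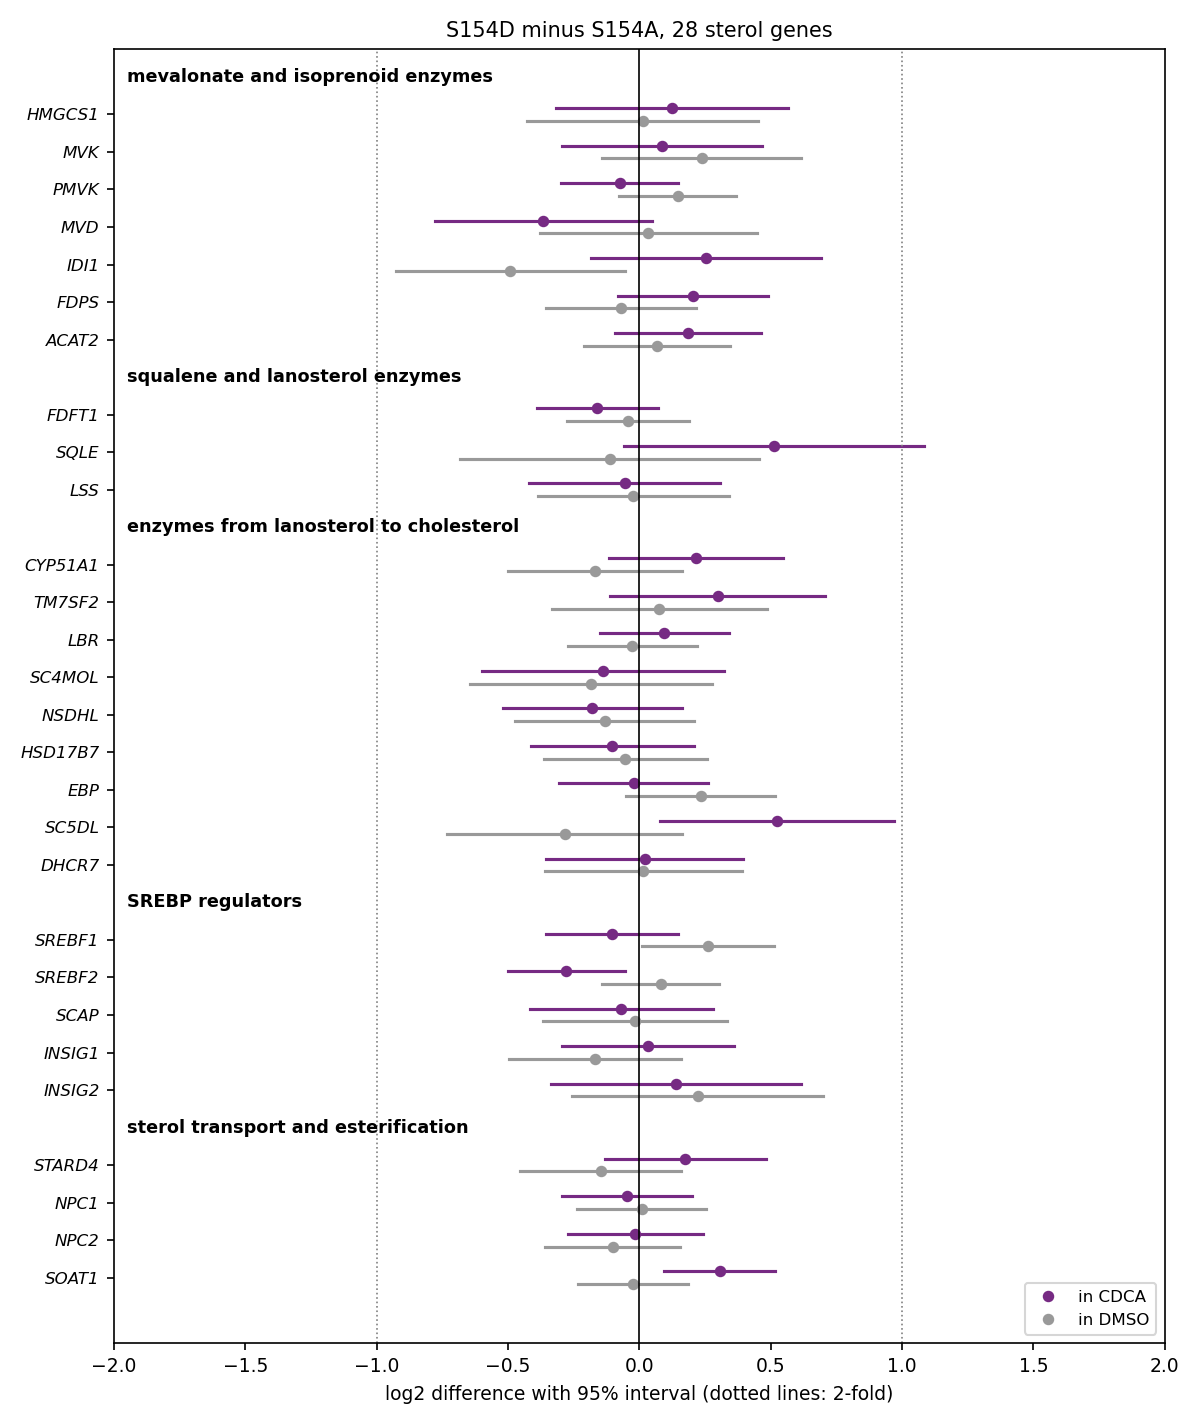
Log2 difference between S154D and S154A for the 28 genes by role, in CDCA (purple, upper) and in DMSO (grey, lower), with 95% intervals from the limma fit (3 arrays per group). In DMSO all 28 intervals lie within the dotted 2-fold lines and in CDCA 27 do, with SQLE past them.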

How the data were processed

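The 12 arrays were of Agilent's whole human genome design, hybridised in 1 colour. Per the file headers, the deposited intensity of each of 45015 features had been background-subtracted by Agilent Feature Extraction 9.5.3.1 (the submitters' processing notes name version 12). The deposited series table held the same intensities with no scaling between arrays. The deposited flags (other values, 0 or 1 per spot) marked spots well above background and outliers.

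Here log2 intensity minus the array's 75th percentile over 43376 non-control spots was used, outlier spots were removed, and spots were averaged into 41000 probes. Probes well above background on all 3 arrays of a group (26898) were kept, and the brightest stood for each gene name (20355). The deposited intensities were fitted with limma 3.58.1 (R 4.3.3, package data.table, version 1.17.8), with 1 mean per group over 12 arrays, two-sided, Benjamini-Hochberg over all genes, called at an adjusted p under 0.05. The script was tested on simulated data. The number of arrays limits the precision. Members and lists were chosen with earlier results of these data known. All 28 members are accounted for; the 5 with the smallest p in each comparison, and up to 4 genes of each surrounding list, are named with values, and others were named after their values were seen. Some genes of the surrounding and marker lists are not reported here. A promoter motif search was planned and not run.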

Additional observations from a re-analysis of the deposited data

How the results depend on the processing

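In S154D cells, CDCA against DMSO, the count of the 28 genes called was 0 as reported and 0 under 18 of 29 alternatives. Counts of all genes called are in brackets below, against 2073 as reported. The count of the 28 was 1 with normexp background correction (1545), 4 with quantile normalization (2483) and 2 with median scaling (1931). It was 4 with only probes well above background on all 12 arrays (2591) and 3 with the mean of all kept probes (1875). With slide as a random block it was 2 (2127), and without slide 4 it was 1 (2020). With every kept probe on its own, chosen after seeing the data, it was 5 (14.4% of all genes). Leaving out 1 array at a time gave 0 to 2. It was 1 without S154A_CDCA 2 (1984), S154D_DMSO 2 (1829) or S154D_CDCA 1 (2123), and 2 without S154A_CDCA 3 (1935). SC5DL was called in 10 of these alternatives. In the other 5 comparisons the count was 0 under every alternative. The numbers of all genes called under these alternatives spanned 0 to 2591 in S154D cells, 0 to 31 in S154A cells, 0 to 1 between mutants in DMSO, 0 to 271 between mutants in CDCA, 0 to 118 for the difference and 0 to 81 for the mean.

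The median change of the 28 genes moved by more than the spread between arrays as follows. With the unscaled series table it was -0.17 in S154A cells (all genes -0.14), 0.17 in S154D cells (0.18), -0.27 between mutants in DMSO (-0.24) and 0.31 for the difference (0.32). Median scaling gave 0.092 in S154D cells (all genes 0.10), 0.091 between mutants in CDCA (0.12), 0.095 for the difference (0.11) and 0.045 for the mean. Slide as a block gave -0.075 in S154D cells. Without slide 2 it was -0.000915 in S154A cells, -0.12 in S154D cells and -0.12 for the difference, which was 0.088 without slide 1 and 0.12 without slide 3. Within slide 3 it was 0.012 in S154A cells, and within slide 1 it was 0.039 between mutants in DMSO. Leaving out 1 array at a time gave -0.088 to -0.000915 in S154A cells. The cause was not tested.

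Of 1160 values of 39 results under alternatives, 1157 kept their sign. The exceptions were IDI1 in S154A cells within slide 3 (0.072), and EBP (-0.010) and PMVK (-0.10) between mutants in DMSO with the unscaled series table. The 39 results were those of the 28 genes with the smallest p in each comparison and the surrounding genes called in S154D cells. They were picked by p on these same arrays, so agreement in sign was partly built in. Other values given above were not counted. Among these, SREBF2, NR1H3, ABCG4 and ABCA1 in S154D cells changed sign with the GC correction, and others may have done so. Same-numbered arrays of different groups shared only a number: over 18 such pairs the correlation of deviations ran from -0.35 to 0.51, and 9 were over 0.1. With replicate number as a block, 0 of 28 genes were called in every comparison, with a smallest adjusted p of 0.0629 in S154D cells, and 0 of all genes were called there. With 3 arrays per group, 25 to 28 of the 28 intervals on the brightest probe excluded a change of over 2-fold. Another probe could differ: ACAT2 had 1.16 ± 0.26 on its dimmer probe in S154D cells. Such a change is therefore not excluded for every gene so counted.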
